A study of Mus musculus with 4 samples.

Results

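The genes described here are 10 that fill, open, sense and read the calcium store of the mouse oocyte, of 55335 annotated genes measured. They are *Car8*, the IP3 receptor genes *Itpr1*, *Itpr2* and *Itpr3*, the entry channel genes *Trpm7*, *Cacna1h* and *Orai1*, the store sensor gene *Stim1*, the pump gene *Atp2a2* and the kinase gene *Camk2g*. The genes were picked by symbol, as a pathway around *Car8*, whose very low counts in mutant oocytes were already known from these data. The difference between mutant and control libraries is therefore given for these 10 genes as a description.

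Mutant oocytes gave 2 libraries, set against 2 labelled control and described as wild type; in the mutant mice a single base was altered where exon 3 of *Ezh2* is alternatively spliced. All 4 came from oocytes of the C57BL/6 strain and were amplified by Smart-Seq2, which copies full-length cDNA from very little RNA. *Ezh2* encodes the enzyme of Polycomb repressive complex 2. The labels used here do not say whether the mutant oocytes kept the long or the short form of *Ezh2*, nor the age of the mice or the number of oocytes. They also do not name an animal for each library, and p-values below therefore measure only how far these libraries scatter, which may be technical. Totals lay between 25090032 and 26617816 counts. All 12 oocyte markers, among them *Gdf9*, *Bmp15* and *Zp3*, were detected in every library, with summed levels of 11501 and 12580 CPM (counts scaled to library size) in mutants 1 and 2 and 13847 and 12298 CPM in controls 1 and 2. Markers of other cells were uneven. The 12 cumulus and granulosa markers summed to 364 and 39.0 CPM in mutants 1 and 2, against 65.2 and 45.2 CPM in controls 1 and 2. Of these, *Cyp19a1* was lower in mutants, at 16.4 and 23.6 CPM, than in controls, at 34.2 and 42.5 CPM. It made up most of the sum in mutant 2 and in both controls. *Has2* went the other way, at 6.14 and 1.84 CPM in mutants and 0.0403 and 0.794 CPM in controls. *Gja1* was at 99.3 and 7.96 CPM in mutants and 10.9 and 0 CPM in controls. *Inhba*, *Hsd3b1*, *Ptx3* and *Tnfaip6* were likewise highest in mutant 1. None of the tested cumulus and granulosa markers had an adjusted p under 0.05 by edgeR's quasi-likelihood test. The 12 leukocyte markers summed to 45.7 and 224 CPM in the mutants, against 37.0 and 37.0 CPM in the controls, with 3 and 0 of the 12 at 0 in mutants 1 and 2 and 7 and 9 at 0 in controls 1 and 2. Most of the sum in mutant 1 and in both controls was *Lcp1*. This gene was at 33.6 and 71.3 CPM in mutants and 32.4 and 31.5 CPM in controls. The pan-leukocyte gene *Ptprc* was at 0.107 and 43.2 CPM in mutants and at 0 in both controls. *Cd74*, at 2.70 and 1.01 CPM in mutants and 0 in both controls, was higher in mutant 1. So were *Fcer1g*, at 0.888 and 0.488 CPM against 0 in both controls, and *Trbc2*, at 5.26 and 3.53 CPM against 0.644 and 0 CPM. The other leukocyte markers were higher in mutant 2 than in mutant 1. Only *Cd74* had an adjusted p under 0.05 (0.0428 by edgeR's quasi-likelihood test).

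At fertilisation the sperm phospholipase makes inositol trisphosphate (IP3), which opens IP3 receptors in the endoplasmic reticulum and lets stored calcium into the cytoplasm in repeated waves. Calcium then switches on the kinase CaMKII, which leads to the destruction of the inhibitor that holds the egg in metaphase. SERCA pumps refill the store, and channels in the plasma membrane supply the calcium to refill it. CAR8 belongs by sequence to the carbonic anhydrases but lacks their enzyme activity. It binds the type 1 IP3 receptor and lowers the affinity of the receptor for IP3, a role described mainly in Purkinje cells of the cerebellum.

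The start of the *Car8* coding sequence is shown because *Car8* is the gene whose RNA was nearly missing from mutant libraries. For the 3 receptor genes, which encode the release channels, a stretch taken at the same place in each is shown. It is not matched to the *Car8* sequence. Of the 3 receptors, only the product of *Itpr1* is described here as a partner of CAR8. All sequences were read from GENCODE M21 transcripts on mm10. The first line is the *Car8* start codon and the rest of its first coding exon (102 bases, chr4:8238853-8238954, minus strand), with a run of 10 codons for acidic residues in capitals. The other lines are 60 coding bases around the pore filter, the ion-selecting stretch of the channel, with the 6 filter codons in capitals, for *Itpr1* (chr6:108518767-108518826, plus strand), *Itpr2* (chr6:146158890-146158949, minus strand) and *Itpr3* (chr17:27118610-27118669, plus strand).
Car8: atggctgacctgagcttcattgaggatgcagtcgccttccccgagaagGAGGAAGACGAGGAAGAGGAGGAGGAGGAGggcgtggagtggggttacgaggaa
Itpr1: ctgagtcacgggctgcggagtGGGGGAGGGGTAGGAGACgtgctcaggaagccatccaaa
Itpr2: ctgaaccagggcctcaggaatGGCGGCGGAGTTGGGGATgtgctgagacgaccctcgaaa
Itpr3: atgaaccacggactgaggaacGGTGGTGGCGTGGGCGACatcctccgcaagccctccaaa
The 3 receptor stretches encode the same filter with mostly different codons, and only the last, GAC, is shared by *Itpr1* and *Itpr3*. *Itpr1* shared 40 of the 60 bases with *Itpr2* and 43 with *Itpr3*, and *Itpr2* shared 40 with *Itpr3*.

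*Car8* (chromosome 4, 8143362 to 8239041) was nearly missing from the mutant libraries. It had 6 and 3 counts in mutants 1 and 2, against 1627 and 1018 counts in controls 1 and 2. On the scaled level these were 0.213 and 0.113 CPM in mutants and 65.5 and 40.4 CPM in controls. Both mutants lay far below both controls, and the controls differed from each other by less than the gap. The means were 0.163 ± 0.0710 CPM in mutants and 53.0 ± 17.8 CPM in controls (SD, n = 2 each), a log2 fold change of -8.29 (SE 0.45). The ratio of the summed counts, controls over mutants and scaled to library size, was 322, with a 95% interval of 169 to 705 that covers counting error only. RSEM, which divides reads between genes that share sequence, gave 1 and 3 expected counts in mutants and 1507 and 937 in controls. In TPM, a level per length of transcript, *Car8* was at 0.02 and 0.05 in mutants and 23.4 and 15.6 in controls. In such bulk libraries fewer cells of a type and less RNA per cell cannot be told apart. *Car8* has 1 annotated transcript, of 3853 bases in 9 exons.

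The fall of *Car8* was not the largest among genes called lower in the mutants. By log2 fold change it ranked 23 of 307 such genes, and by mean level in controls it ranked 155. The genes with the most similar pattern over the 4 libraries were sought among the 6531 tested genes whose mean reached 10 CPM, by the Euclidean distance of centred log2(CPM + 0.5). The 5 nearest were *Vmn1r76*, *Gm15668*, *E330012B07Rik*, *1700057H21Rik* and *8430426J06Rik*, at distances of 0.405, 0.497, 0.658, 0.755 and 0.862. The first belongs to the large vomeronasal receptor family, and its reads are uncertain because relatives are alike. The others are annotated as long noncoding RNA genes. In controls RSEM gave *Gm15668* only 92 and 71 expected counts, against 1336 and 1148 counts. For *1700057H21Rik* it gave 70 and 63, against 752 and 904 counts. It gave *Vmn1r76* 366 and 217, *8430426J06Rik* 385 and 323 (counts 735 and 701) and *E330012B07Rik* 1425 and 1702. *Vmn1r76* had 0 counts in both mutants and 1599 and 995 counts in controls, at least 948-fold lower in mutants against a floor of 3 counts over the group, and *E330012B07Rik* had 11 and 12 counts in mutants and 1618 and 1866 in controls. They lie on chromosomes 7, 1, 6, 2 and 15, none on the chromosome of *Car8*.

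Neither of the tested genes near *Car8* passed the test. Within 1 Mb of it 14 genes are annotated, of which 11 had no count in any library and 2 were abundant enough to test. *Rab2a*, a gene for a small GTPase of the secretory pathway 296603 bases away, was at 173 and 206 CPM in mutants and 185 and 128 CPM in controls (log2 fold change 0.28, SE 0.21, adjusted p = 0.487 by edgeR's quasi-likelihood test). *Chd7*, a chromatin remodeller gene 451365 bases away, was at 113 and 111 CPM in mutants and 97.3 and 106 CPM in controls (log2 fold change 0.14, SE 0.14, adjusted p = 0.607). The *Rab2a* levels overlapped, and both *Chd7* levels in mutants lay just above those in controls.

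Of the 10 genes, *Car8* alone was past the threshold set for edgeR (adjusted p under 0.05 after Benjamini and Hochberg), as were 3.75% of the 15493 genes tested (1.77% higher and 1.98% lower in mutants), and 0 of the other 9 were. Among those 9, 2 had an unadjusted p under 0.05, beside 23.0% of all genes tested. DESeq2, run on the same genes, called 1 (*Itpr2*), beside 12.9% of all, and limma called 0, beside 4.76%. All 10 passed the filter on low counts. The CPM of mutants and controls did not overlap for 8 of the 10, beside 54.6% of all genes tested. In TPM 7 of the 8 genes among these with a mean of at least 1 TPM did not overlap, beside 54.8% of such genes. The median log2 fold change was 0.22 over the 10 genes and 0.23 without *Car8*, beside 0.05 over all genes tested. The genes were chosen with this comparison known, so these counts carry no test.

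**Figure D1:**
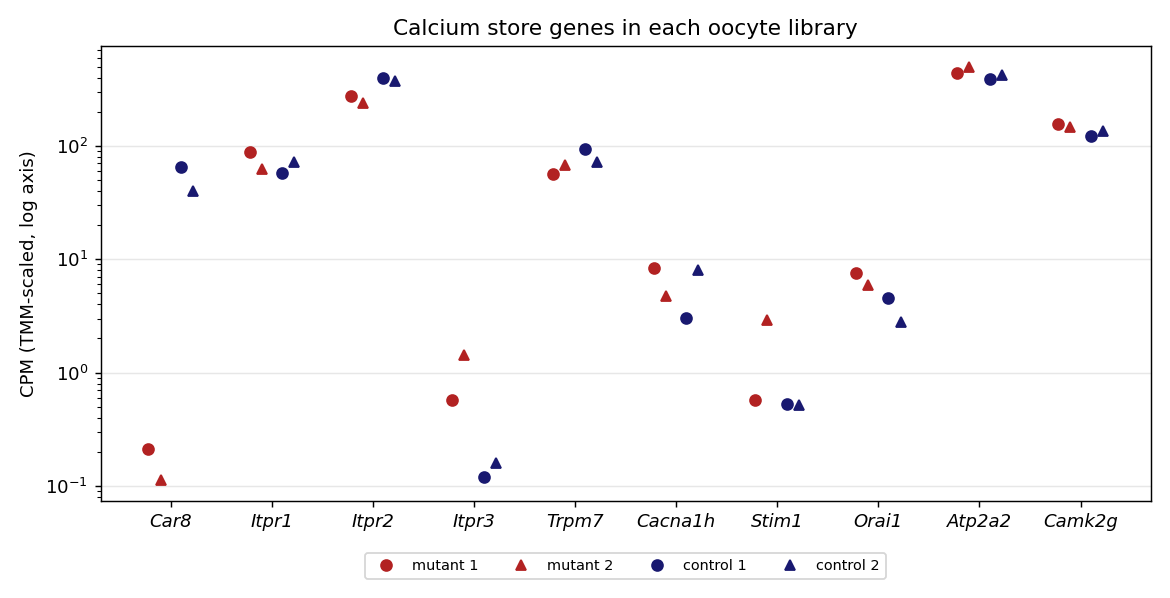
Level of each gene in each library in CPM on a log axis, with mutants in red left of controls in dark blue and replicate 1 as circles, replicate 2 as triangles. *Car8* lies at 0.213 and 0.113 CPM in mutants and at 65.5 and 40.4 CPM in controls, while *Itpr3* and *Stim1* lie under 3 CPM in all libraries and the other 7 genes differ little between groups on this axis.

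Among the release channels, *Itpr2* (chromosome 6, 146108299 to 146502223) was at 274 and 241 CPM in mutants 1 and 2 and at 401 and 375 CPM in controls 1 and 2. Both mutants lay below both controls. The means were 258 ± 23.4 CPM in mutants and 388 ± 18.7 CPM in controls (SD, n = 2 each), a log2 fold change of -0.59 (SE 0.15). *Itpr1* (chromosome 6, 108213096 to 108551109), the main receptor of mouse eggs and the partner of CAR8, was at 88.2 and 62.0 CPM in mutants and 57.9 and 72.0 CPM in controls. Its groups overlapped, with mutant 2 below control 2, and its log2 fold change was 0.21 (SE 0.22), or -0.084 without mutant 1. *Itpr3* (chromosome 17, 27057304 to 27122223) was barely read, at 16 and 38 counts in mutants and 3 and 4 counts in controls (log2 fold change 2.79, SE 0.89). Its higher library, mutant 2, was also the one with the most leukocyte marker RNA, at 224 CPM summed, and the part of those cells in this value was not tested.

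Summed over the 3 receptor genes, the TPM level was 88.8 and 62.8 in mutants and 70.0 and 83.2 in controls, so the groups overlapped. *Itpr1* made up 56.8% and 49.3% of it in mutants 1 and 2 and 35.7% and 46.9% in controls 1 and 2, while *Itpr2* made up 43.0% and 50.4% in mutants and 64.3% and 53.1% in controls. Each mutant thus had a larger *Itpr1* share than each control, with mutant 2 and control 2 close together. *Itpr3* made up at most 0.334%. In controls the receptor genes together had 2.99 and 5.33 times the TPM of *Car8*. In mutants the TPM of *Car8* rests on 1 and 3 expected counts, too few for such a ratio.

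**Figure D2:**
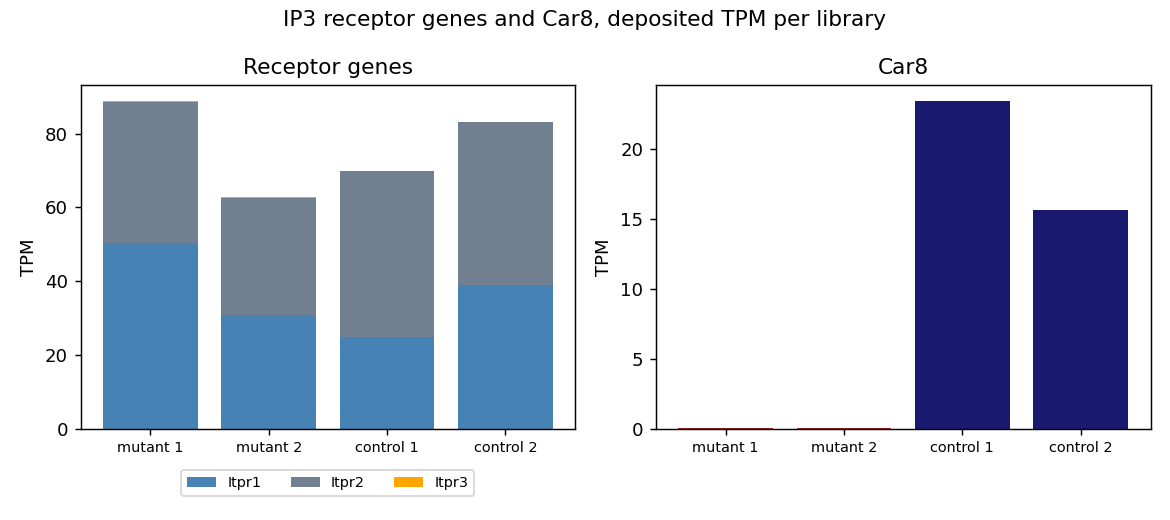
Deposited TPM in mutants 1 and 2 and controls 1 and 2, with the 3 IP3 receptor genes stacked on the left and *Car8* on the right. The receptor sum lies between 62.8 and 88.8 TPM in all 4 libraries, with *Itpr3* as at most a thin line at the top, and *Car8* reaches 23.4 and 15.6 TPM only in the controls.

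The entry channels did not move as 1 group. *Trpm7* (chromosome 2, 126791565 to 126876230), which encodes a channel for calcium and magnesium joined to a kinase and which carries calcium into mouse eggs, was at 56.1 and 67.5 CPM in mutants and 93.8 and 72.3 CPM in controls. The groups did not overlap, but mutant 2 and control 2 lay close together (log2 fold change -0.43, SE 0.19, or -0.23 without control 1). *Cacna1h* (chromosome 17, 25374285 to 25433783), the gene of the T-type channel Cav3.2 that also feeds the store of mouse eggs, was at 8.38 and 4.77 CPM in mutants and 3.06 and 7.98 CPM in controls. Its groups overlapped widely (log2 fold change 0.25, SE 0.54). In TPM *Cacna1h* was at 10.1 and 6.10 in mutants and 1.89 and 5.80 in controls, without overlap, and RSEM gave it a shorter mean transcript in mutants. Without mutant 1 its log2 fold change in counts was -0.22, and without control 1 it was -0.29.

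Of the store-operated pair, the sensor gene *Stim1* (chromosome 7, 102267806 to 102437319), whose product reports an empty store to ORAI channels, was near the limit of detection. It had 16 and 77 counts in mutants and 13 and 13 counts in controls, or 0.568 and 2.89 CPM in mutants and 0.524 and 0.516 CPM in controls (log2 fold change 1.72, SE 0.87). Only mutant 2 stood apart, the library in which *Ptprc* reached 43.2 CPM; the part of leukocyte RNA in this value was not tested. Without mutant 2 the log2 fold change of *Stim1* was 0.12. Nearly all STIM message came from *Stim2*, which made up 98.9% to 99.9% of the TPM of the 2 genes in the 4 libraries. *Orai1* (chromosome 5, 123015074 to 123030456), which encodes the channel opened by STIM proteins, was at 7.53 and 5.90 CPM in mutants and 4.59 and 2.78 CPM in controls. Both mutants lay above both controls, with means of 6.71 ± 1.15 CPM in mutants and 3.68 ± 1.28 CPM in controls (SD, n = 2 each; log2 fold change 0.87, SE 0.40, or 0.50 without control 2). It was the leading ORAI gene, with 81.1% to 93.1% of the family's TPM.

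The pump and the kinase genes had the highest mean TPM of the 10. *Atp2a2* (chromosome 5, 122453513 to 122502225), which encodes the SERCA2 pump that refills the store, was at 441 and 501 CPM in mutants and 392 and 427 CPM in controls (log2 fold change 0.20, SE 0.15). *Camk2g* (chromosome 14, 20734875 to 20794088), which encodes the CaMKII isoform that mouse eggs need to leave metaphase, was at 156 and 146 CPM in mutants and 121 and 136 CPM in controls (log2 fold change 0.23, SE 0.14). For each gene the 2 mutants lay just above the 2 controls. *Atp2a2* made up 97.8% to 100% of SERCA TPM and *Camk2g* 95.2% to 98.6% of CaMKII TPM, so 1 paralog carried each family in every library.

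In TPM the order of the genes was much alike in all libraries, apart from *Car8*. *Atp2a2* led with 143 ± 13.0 in mutants and 107 ± 13.2 in controls (SD, n = 2 each), followed by *Camk2g* with 124 ± 2.44 in mutants and 95.0 ± 16.2 in controls, and the control values of these 2 genes overlapped. *Itpr1* averaged 40.7 ± 13.8 TPM in mutants and 32.0 ± 9.93 TPM in controls, and *Itpr2* averaged 34.9 ± 4.62 TPM in mutants and 44.6 ± 0.573 TPM in controls. The levels of these receptors overlapped within mutants but not within controls. *Trpm7* averaged 23.2 ± 2.76 TPM in mutants and 27.8 ± 2.28 TPM in controls, within the range of *Itpr1* in controls. In controls *Car8* came next at 19.5 ± 5.52 TPM, above *Orai1* and *Cacna1h*, whose levels overlapped each other in both groups, and in mutants it was the lowest of the 10 at 0.0350 ± 0.0212 TPM. *Stim1* and *Itpr3* stayed under 2 TPM everywhere.

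The length that RSEM assigned to a gene is the mean of its transcript lengths weighted by their estimated abundance, and was not used to choose the genes. With 2 libraries against 2, a two-sided exact permutation test cannot go below p = 0.333, so lengths are given without a test. *Itpr1* had lengths of 3105 and 3516 bases in mutants and 3463 and 3072 bases in controls, far below its longest coding transcript of 9870 bases; 5 of its 13 annotated transcripts retain introns. *Itpr2* had 10772 and 11136 bases in mutants and 11116 and 11435 bases in controls, close to its longest transcript of 11679 bases. The order of *Itpr1* and *Itpr2* in TPM therefore rests on these lengths, and in CPM, which is not per length, the receptors had 88.2 and 274 in mutant 1.

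*Cacna1h* was the gene of the 10 with the clearest difference in length. It had 1605 and 1519 bases in mutants and 2471 and 2225 bases in controls, with means of 1562 ± 60.7 bases in mutants and 2348 ± 174 bases in controls (SD, n = 2 each), beside a longest coding transcript of 8230 bases. *Atp2a2* had 5511 and 5465 bases in mutants and 5600 and 5600 bases in controls. These lie above its longest coding transcript of 4486 bases and near its longest transcript of 5674 bases. Most of its TPM in every library was therefore assigned to transcripts not annotated as coding. For *Cacna1h* and *Atp2a2* the groups did not overlap. Of the 7 members with a mean of at least 1 TPM and more than 1 transcript they are 28.6%, beside 35.3% of all 9732 such genes. *Stim1* had 4085 bases in mutant 1 and both controls and 2421 bases in mutant 2, the library in which its counts were highest. *Trpm7*, *Orai1* and *Camk2g* overlapped between groups, and *Car8* and *Itpr3* had the same length in all libraries.

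**Figure D3:**
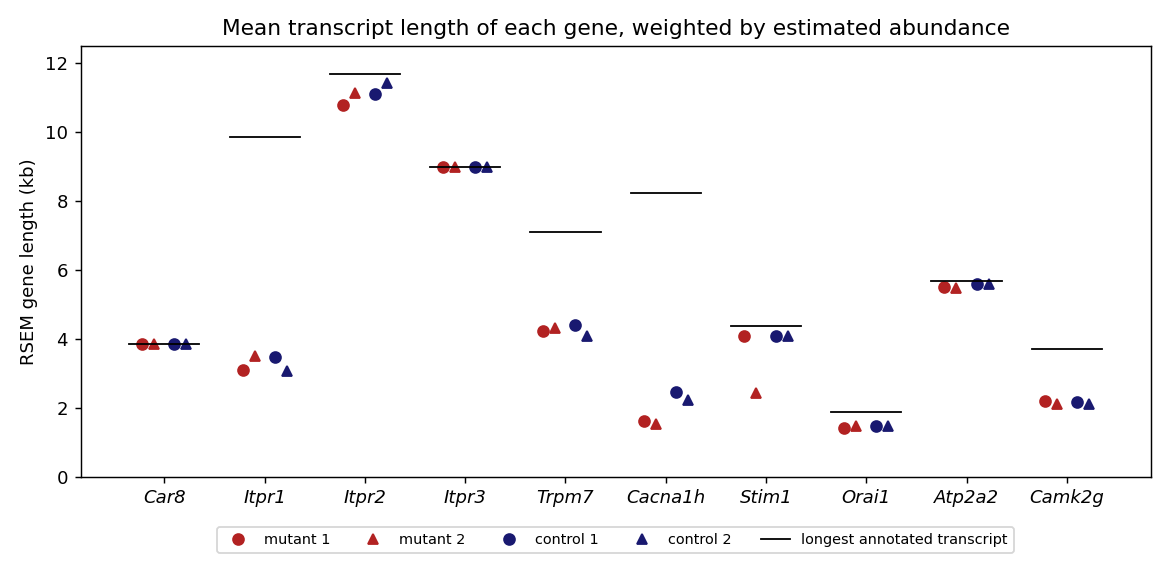
RSEM gene length in kb for each gene and library, with mutants in red left of controls in dark blue, and a black line at the longest annotated transcript. *Itpr1* and *Cacna1h* lie far below their lines in all libraries, and *Cacna1h* is shorter in both mutants, at 1605 and 1519 bases, than in both controls, at 2471 and 2225 bases.

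Other genes of the pathway mostly did not pass the test. Of 191 further genes in 9 lists, 125 were abundant enough to test, and 1 rose and 3 fell in the mutants, 3.20% of those tested beside 3.75% of all genes. Their median log2 fold change was 0.13, beside 0.05 over all genes tested. Without control 1 or without control 2 the count was 0, beside 0.126% and 0.155% of all genes tested in those fits. It was 20 of 133 without mutant 1 and 9 of 133 without mutant 2, beside 10.2% and 6.02% of all genes. In all 4 libraries 35 of the 125 had an unadjusted p under 0.05, DESeq2 called 19 on the same genes and limma called 4. The shares of all genes for these last 3 rules, 23.0%, 12.9% and 4.76%, also stand beside the counts per list below. So do the shares just given for the fits with a library left out. All p-values in the following paragraphs are from edgeR's quasi-likelihood test, adjusted over all genes tested.

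Among release channels and partners of the IP3 receptor 1 of 17 tested genes fell and 0 rose, with 1 at an unadjusted p under 0.05 and 1 call by DESeq2. This was *Tmco1* (chromosome 1, 167308378 to 167333978), which encodes a leak channel that releases calcium from an overfilled store. It was at 32.1 and 37.5 CPM in mutants and 76.5 and 67.0 CPM in controls (log2 fold change -1.04, SE 0.18, adjusted p = 0.0361). The 2 groups were well apart. Tested on TPM with a pseudocount of 1, its adjusted p was 0.0923, in a range of 3.76e-05 to 0.296 over 17 alternatives, and its direction was the same in all 17.

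Among 27 tested genes of plasma membrane entry 2 fell and 0 rose, with 5 at an unadjusted p under 0.05 and 3 calls by DESeq2. *Trpc4* (chromosome 3, 54156035 to 54318471), a receptor-operated cation channel gene, was at 13.0 and 22.2 CPM in mutants and 68.1 and 64.4 CPM in controls (log2 fold change -1.91, SE 0.28, adjusted p = 0.0226). *Cacna1d* (chromosome 14, 30039939 to 30491455), the gene of the L-type channel Cav1.3, was at 14.9 and 17.2 CPM in mutants and 34.4 and 32.5 CPM in controls (log2 fold change -1.06, SE 0.20, adjusted p = 0.0466). Each group was tight beside the gap between them. With RSEM counts *Cacna1d* had an adjusted p of 0.0531, in a range of 0.000387 to 0.324 over 17 alternatives. *Cacna1d* made up 34.1% and 38.8% of the TPM of voltage-gated alpha 1 genes in mutants 1 and 2 and 80.0% and 58.5% in controls 1 and 2, while *Cacna1h* made up 60.2% and 57.4% in mutants and 15.8% and 35.6% in controls. These shares rest on counts and on the shorter length that RSEM gave *Cacna1h* in mutants. RSEM gave *Cacna1d* 364 and 365 expected counts in mutants and 679 and 675 in controls. For *Cacna1h* it gave 223 and 120 in mutants and 74 and 188 in controls. In CPM *Cacna1d* was above *Cacna1h* in all 4 libraries.

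Among 26 tested decoders 1 rose and 0 fell, with 8 at an unadjusted p under 0.05 and 3 calls by DESeq2. Their median log2 fold change was 0.37, with positive values in 20 of the 26, beside 53.3% of all genes tested. *Prkce* (chromosome 17, 86167785 to 86657919), a protein kinase C gene whose product is regulated by diacylglycerol and not by calcium, had 79 and 77 counts in mutants and 0 in both controls, at least 47.5-fold higher against a floor of 3 counts over the controls (adjusted p = 0.0185). It remained low, at 2.81 and 2.89 CPM in mutants. *Fbxo43*, which encodes the inhibitor of metaphase exit that CaMKII marks for destruction, was at 275 and 302 CPM in mutants and 240 and 232 CPM in controls (adjusted p = 0.272). *Wee2*, a further target of CaMKII, was at 799 and 853 CPM in mutants and 885 and 977 CPM in controls (adjusted p = 0.545). Both of these genes were picked from the list after their values were seen.

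The enzymes that make and remove IP3 gave 0 calls by edgeR and limma. Of 10 tested phospholipase C genes and relatives 3 had an unadjusted p under 0.05 and 1 was called by DESeq2, beside 23.0% and 12.9% of all genes. *Plcb1* was at 38.3 and 47.0 CPM in mutants and 65.5 and 59.8 CPM in controls (log2 fold change -0.56, SE 0.18, adjusted p = 0.134), and *Plce1* was at 163 and 202 CPM in mutants and 207 and 217 CPM in controls (adjusted p = 0.476). The sperm phospholipase gene *Plcz1*, also picked after its values were seen, had 0 counts in all libraries. Of 9 tested genes of IP3 turnover 3 had an unadjusted p under 0.05 and 1 was called by DESeq2. *Ippk* and *Ipmk*, inositol phosphate kinase genes, had log2 fold changes of 0.05 and 0.16 (SE 0.18 and 0.14).

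Store buffers and chaperones had the highest list median, 0.75, with positive log2 fold changes in 10 of 12 tested genes, beside 53.3% of all genes tested. None was called by edgeR or limma, 6 had an unadjusted p under 0.05 (23.0% of all genes) and DESeq2 called 4 (12.9% of all genes). With a library left out edgeR called 0 without control 1 or control 2, 1 without mutant 1 and 5 of 13 without mutant 2. The genes named by their abundance, the lectin chaperone gene *Canx* and the reticulocalbin gene *Rcn2*, had log2 fold changes of 0.16 and -0.01 (SE 0.17 and 0.18). Picked after their values were seen, the buffer gene *Calr* was at 196 and 135 CPM in mutants and 90.4 and 91.0 CPM in controls (adjusted p = 0.0685), and the oxidoreductase gene *Pdia3* was at 374 and 250 CPM in mutants and 179 and 164 CPM in controls (adjusted p = 0.0745). Both were highest in mutant 1, the library with 364 CPM of cumulus and granulosa markers, and the part of those cells in these values was not tested.

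Pumps and exchangers other than *Atp2a2* gave 0 calls by edgeR and limma among 9 tested genes, with 3 at an unadjusted p under 0.05 and 1 call by DESeq2. *Atp2b1*, a plasma membrane calcium pump gene, was at 492 and 611 CPM in mutants and 650 and 553 CPM in controls, and *Atp2c1*, a Golgi pump gene, was at 405 and 487 CPM in mutants and 643 and 602 CPM in controls (adjusted p = 0.727 and 0.137). Mitochondrial uptake gave 0 calls by edgeR and limma among 11 tested genes, with 3 at an unadjusted p under 0.05 and 2 calls by DESeq2. *Mcu*, the gene of the uniporter pore, had a log2 fold change of 0.11 (SE 0.17), and *Vdac3*, an outer membrane channel gene, had 0.08 (SE 0.19).

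**Figure D4:**
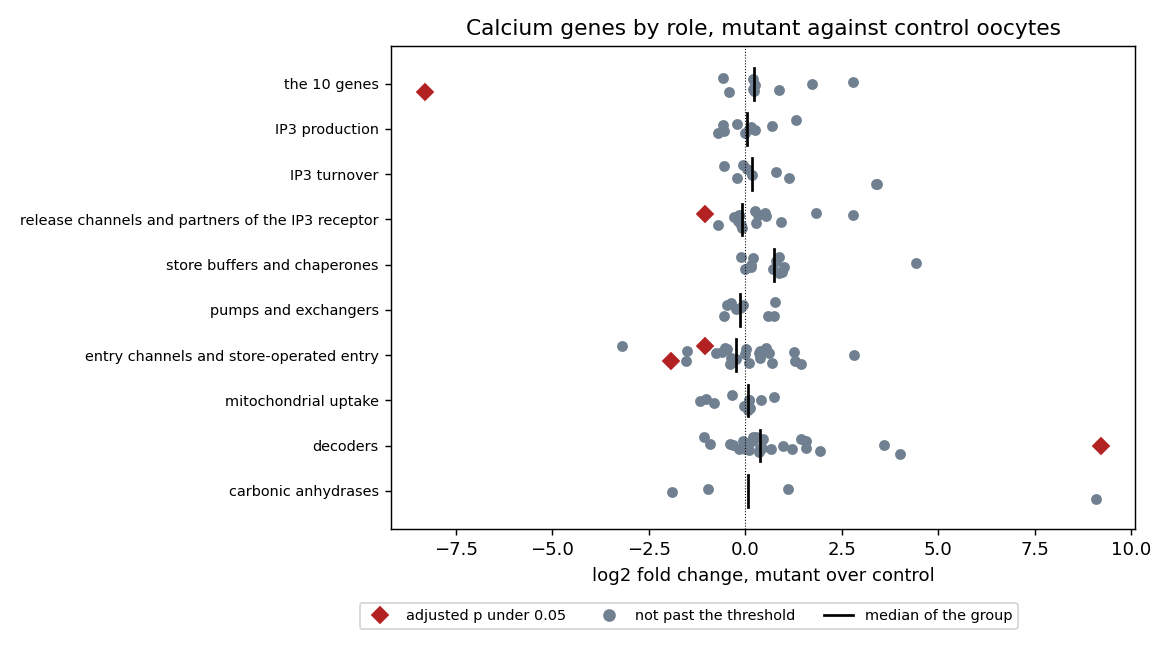
Log2 fold change, mutant over control, of each tested gene, for the 10 genes at the top and for 9 lists of other calcium genes below, with red diamonds at adjusted p under 0.05, grey circles otherwise and black bars at the medians. *Car8* stands alone at -8.29. *Trpc4*, *Cacna1d* and *Tmco1* are the other genes past the threshold that fell. The fitted value of *Prkce*, which has 0 counts in controls, depends on the prior count.

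Of 15 other carbonic anhydrase genes, 4 were abundant enough to test, and 0 were called by edgeR or limma, with 3 at an unadjusted p under 0.05 and 3 called by DESeq2 on the same 4 genes, beside 23.0% and 12.9% of all genes. *Car10*, a relative that also lacks enzyme activity, was at 10.8 and 11.2 CPM in mutants and 21.1 and 21.9 CPM in controls (log2 fold change -0.97, SE 0.22, adjusted p = 0.0661). *Car2*, the widespread cytosolic enzyme gene, was at 0.604 and 26.5 CPM in mutants and 0.0403 and 0 CPM in controls (adjusted p = 0.0736), so its level lay almost wholly in mutant 2, the library with 224 CPM of leukocyte markers; their part in it was not tested. *Car8* made up 0.177% and 0.140% of the family's TPM in mutants and 62.6% and 47.8% in controls. The mutant shares rest on 1 and 3 expected counts of *Car8*, and in mutant 2 *Car2* made up 75.6% of the family's TPM.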

How the data were processed

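RNA of mouse oocytes was measured in 2 mutant and 2 control libraries, grouped by title. The authors deposited raw counts in 1 matrix and, per the file headers, RSEM tables with expected counts, TPM, FPKM (not tested) and gene lengths in bases. Cutadapt 1.16, STAR, RSEM and mm10 are named, per the submitters' processing notes. For the matrix, the counter and its use of strand were not given in the sources used here; antisense and overlapping genes are uncertain.

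The main test was edgeR 4.0.16 in R 4.3.3 (filterByExpr, TMM, glmQLFit, glmQLFTest, genotype as the only term, 2 residual degrees of freedom). CPM uses TMM-scaled totals of tested genes. The SE is the log2 fold change over the square root of F. The common biological coefficient of variation was 0.353, which limits small changes. Expected counts were rounded for the test. The fitting script was tested on simulated data. Positions come from GENCODE M21. Of 191 other symbols 2 were matched by synonym and none failed.

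The members, lists and tests were chosen with earlier results of these data known. Named genes are the 10 members, up to 4 called genes per list (otherwise the 2 with the highest mean TPM), the tested neighbours of *Car8* and its 5 nearest patterns; *Plcz1*, *Fbxo43*, *Wee2*, *Calr* and *Pdia3* were added after their values were seen. Alternatives were DESeq2 1.42.0, limma 3.58.1, other scalings, filters, inputs and thresholds, a replicate block and each library left out. DESeq2 on the genes edgeR tested was added after seeing the data.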

Additional observations from a re-analysis of the deposited data

How the results depend on the processing

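Of 162 log2 fold changes of the 10 genes under alternatives, 156 kept their direction and side of the threshold. *Car8* did so in 17 of 17, between -9.29 and -4.28, the smallest with TPM and a pseudocount of 1; leaving out 1 library gave -8.84 to -7.92. With a library left out *Itpr1* ranged between -0.084 and 0.43, reversed without mutant 1, and *Cacna1h* between -0.29 and 1.05, reversed without control 1 (-0.29) and without mutant 1 (-0.22); the cause was not tested. *Itpr2* passed with DESeq2 on either gene set (-0.61) and *Stim1* without mutant 1 (2.45). The 10 genes gave 2 calls with DESeq2 on either gene set and at an adjusted p under 0.1, and 1 to 2 with a library left out. The count over all genes, 581, was 1322 with edgeR on 26406 genes with at least 1 count, 1886 with DESeq2 on those and 1993 with DESeq2 on the 15493 genes of the main test, a fit added after seeing the data. With limma on TPM, where input, test and gene set (11321 genes) all differ, it was 286 and 302 with pseudocounts of 1 and 0.1. It was 1721 at an adjusted p under 0.1, and 22 to 1688 with a library left out. The count of other calcium genes, 4, was 15 with edgeR on 174 genes with a count, 19 with DESeq2 on those and 19 with DESeq2 on the 125 of the main test, 7 at a mean of at least 10 CPM, 0 and 1 with TPM and pseudocounts of 1 and 0.1, 16 at an adjusted p under 0.1, and 0 to 20 with a library left out. Plain library totals moved the median of all genes to 0.14 and reversed none of the 10. The replicate numbers pair nothing by the labels. Deviations of same-numbered libraries correlated at 0.18 over 15493 genes, and with the replicate block the counts were 1213 over all genes, 1 among the 10 and 15 among other calcium genes. With 2 libraries a group, small changes were not detectable, and counts of *Itpr3* and *Stim1* were few.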
